A study of Mus musculus with 15 samples.

Results

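The expression of 8 mesothelium genes (Wt1, Msln, Upk3b, Upk1b, Lrrn4, Gpm6a, Muc16 and Bnc1) was followed in the developing mouse stomach. They were taken by gene symbol from 44788 symbols in the deposited RNA-Seq tables, and each had 1 entry. Whole stomachs of C57BL/6 mice were collected at 15 time points, daily from embryonic day E12.5 to E18.5, on days D1, D3 and D5 after birth, and in weeks W1, W2, W3, W6 and W8. There was 1 transcriptome per time point, and no mouse was treated or mutated. By the description of the study, mice up to 2 weeks old were taken without distinction of sex and older ones were male. At W3, W6 and W8 an effect of age and one of sex therefore cannot be told apart. Stomachs were pooled into a sample from 3 embryos at E12.5 to E14.5 and from 2 embryos at E15.5 to E17.5, while samples after E18.5 held a single stomach, a description that does not separate RNA from protein samples. The time points fall into the RNA phases of the study, Ph1 (E12.5 to E17.5, n = 6), Ph2 (E18.5 to W2, n = 6) and Ph3 (W3, W6 and W8, n = 3), and by their labels into 7 embryonic and 8 postnatal time points. The phases were drawn from these same transcriptomes, so a p-value between phases is not an independent test, and the time points of a group stand in for replicates. Values are FPKM, counts of sequenced fragments scaled to transcript length and library size, each with a lower and an upper bound in the deposited tables that cover counting error only.

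The mesothelium is a single layer of flat cells that covers the outer surface of the stomach and lines the body cavity. Its cells combine features of epithelium and mesenchyme: they carry keratins and a surface coat that lets organs slide, and in the embryo part of them leave the surface layer and contribute to the connective tissue and vessels of the organs beneath. Wt1 encodes a zinc finger transcription factor of the embryonic mesothelium, kidney and gonad. Bnc1 encodes basonuclin 1, a zinc finger protein also known from basal keratinocytes and germ cells. Msln encodes mesothelin, a surface protein held by a lipid anchor, and Muc16 encodes the large membrane mucin that carries the CA125 antigen and binds mesothelin. Upk3b and Upk1b encode uroplakins, membrane proteins first known from the bladder lining, where uroplakin 1b pairs with uroplakins of the third type. Lrrn4 encodes a membrane protein with leucine-rich repeats, and Gpm6a encodes a proteolipid protein abundant in neurons. None of the 8 genes marks mesothelium alone in a whole organ, and in bulk tissue fewer cells of a type and less RNA per cell cannot be told apart.

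All 8 genes are protein-coding and lie apart on the GRCm38 build, except that Wt1 and Lrrn4 share a chromosome. In the positions of the deposited tables, Wt1 spans chr2:105126529-105173614, Lrrn4 chr2:132868516-132880862, Upk3b chr5:136038496-136044993, Bnc1 chr7:81966662-81992299, Gpm6a chr8:54779434-55060878, Muc16 chr9:18495445-18674821, Upk1b chr16:38773182-38800351 and Msln chr17:25748613-25754446. Wt1, Upk3b and Gpm6a are on the plus strand and the others on the minus strand. No gene that overlaps any of them in GENCODE vM21 has a value in the tables. Promoter windows from 250 bases before to 50 bases after the transcription start were taken from RefSeq (GRCm38.p6) for Upk3b, Lrrn4, Bnc1, Gpm6a (2 starts) and Muc16. The table held no entry for Wt1, Msln and Upk1b. Windows of Upk3b and Lrrn4 are shown because these genes had the most similar course among the surface proteins, that of Bnc1 because it was lower at each step from E12.5 to E17.5, and that of Gpm6a, at its upstream start, because it was the 1 member called higher after birth. Capitals mark the GC box, searched as GGGCGG on both strands, and the M-CAT box, to which TEAD factors bind, searched as CATTCC on both strands.
Upk3b, chr5:136038246-136038545, plus strand: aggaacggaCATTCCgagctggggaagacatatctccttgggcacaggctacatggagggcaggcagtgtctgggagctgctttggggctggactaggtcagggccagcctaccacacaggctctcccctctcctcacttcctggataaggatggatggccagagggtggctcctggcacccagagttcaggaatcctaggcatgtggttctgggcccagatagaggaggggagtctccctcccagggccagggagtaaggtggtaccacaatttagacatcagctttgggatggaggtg
Lrrn4, chr2:132880813-132881112, minus strand: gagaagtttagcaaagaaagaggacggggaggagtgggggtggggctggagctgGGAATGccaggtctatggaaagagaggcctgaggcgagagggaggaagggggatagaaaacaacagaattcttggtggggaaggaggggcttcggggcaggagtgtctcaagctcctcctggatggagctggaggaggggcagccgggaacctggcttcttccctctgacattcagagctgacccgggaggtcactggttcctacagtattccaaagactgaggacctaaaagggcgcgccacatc
Bnc1, chr7:81992250-81992549, minus strand: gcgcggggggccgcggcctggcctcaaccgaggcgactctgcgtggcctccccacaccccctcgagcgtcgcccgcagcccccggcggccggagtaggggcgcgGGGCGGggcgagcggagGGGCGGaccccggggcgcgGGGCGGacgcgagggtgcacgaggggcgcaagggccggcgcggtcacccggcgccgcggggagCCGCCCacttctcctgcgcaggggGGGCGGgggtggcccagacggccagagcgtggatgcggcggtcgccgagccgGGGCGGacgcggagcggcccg
Gpm6a, chr8:54779184-54779483, plus strand: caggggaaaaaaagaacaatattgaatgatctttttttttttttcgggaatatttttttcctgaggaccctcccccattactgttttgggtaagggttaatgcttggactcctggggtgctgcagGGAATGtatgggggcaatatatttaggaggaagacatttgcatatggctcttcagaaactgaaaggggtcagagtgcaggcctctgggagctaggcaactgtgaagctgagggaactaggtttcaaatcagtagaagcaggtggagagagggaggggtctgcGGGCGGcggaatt
The Bnc1 window held 50 CpG dinucleotides and 6 GC boxes. The windows of Upk3b, Lrrn4 and Gpm6a held 2, 7 and 4 CpG dinucleotides, against a median of 7 over 32851 promoter windows of the same length. A GC box was found in 35.7% of all windows and in those of Bnc1 and Gpm6a. CATTCC occurred in 14.7% of all windows, and in Upk3b, Lrrn4 and Gpm6a its match began at positions -241, -196 and -125 of the printed strand, counted so that the first transcribed base is 1 and the base before it is -1. The TATA box, searched as TATAAA on both strands and present in 13.6% of all windows, was met at the downstream start of Gpm6a. A core of the site bound by the WT1 protein, searched as GTGGGAG on both strands and present in 9.73% of all windows, was met in none of the 6 windows of members. None of the matches overlapped another. These matches are letters in a window and were not tested as binding sites.

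A few libraries need naming before the values. Genes of the forestomach squamous epithelium, the keratinised lining of the upper mouse stomach, summed to 16.9 FPKM at W8 against 1114 at W6 and 2351 at W3, so W8 stood apart. E16.5 contained transcripts of lens crystallins (Cryaa 35.8 FPKM, against 0.749 at E17.5). The share of summed FPKM held by the 10 highest genes was 11.2% at E14.5 and 53.2% at W6. Values were also divided by median-ratio factors, which ranged from 0.577 (W6) to 1.27 (E14.5). This scaling moved the median of all genes between Ph3 and Ph2 from -0.43 to -0.02 on the log2 scale, and between the postnatal and embryonic time points from -0.36 to 0.01. Read from the bounds as Poisson errors, 10397612 (E16.5) to 16352637 (W6) fragments lay behind the gene values. The methods of the study name liver for the RNA and the labels name stomach. Summed FPKM of 8 gastric epithelial genes was 360.4 at E12.5 and 191766 at W6.

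Together the 8 genes summed to 85.1 FPKM at E12.5, 93.2 at E16.5, 55.2 at E17.5, 55.0 at E18.5, 125.8 at D1, 41.3 at W2 and 19.2 at W8. Upk3b was the highest of the 8 from E12.5 to E15.5, at E18.5 and at D1, and Msln at 6 of the remaining time points. Muc16 was the lowest of the 8 at every time point. The members did not share 1 course. Wt1 and Bnc1 were highest at E12.5, Lrrn4 at E13.5, Muc16 at E14.5, Upk1b at E16.5, Msln and Upk3b at D1, and Gpm6a at W3. The highest value exceeded the lowest by 80.7-fold for Wt1, 34.7-fold for Bnc1, 25.2-fold for Upk1b, 21.3-fold for Lrrn4, 18.0-fold for Msln, 15.8-fold for Upk3b, 11.8-fold for Muc16 and 10.2-fold for Gpm6a.

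**Figure D1:**
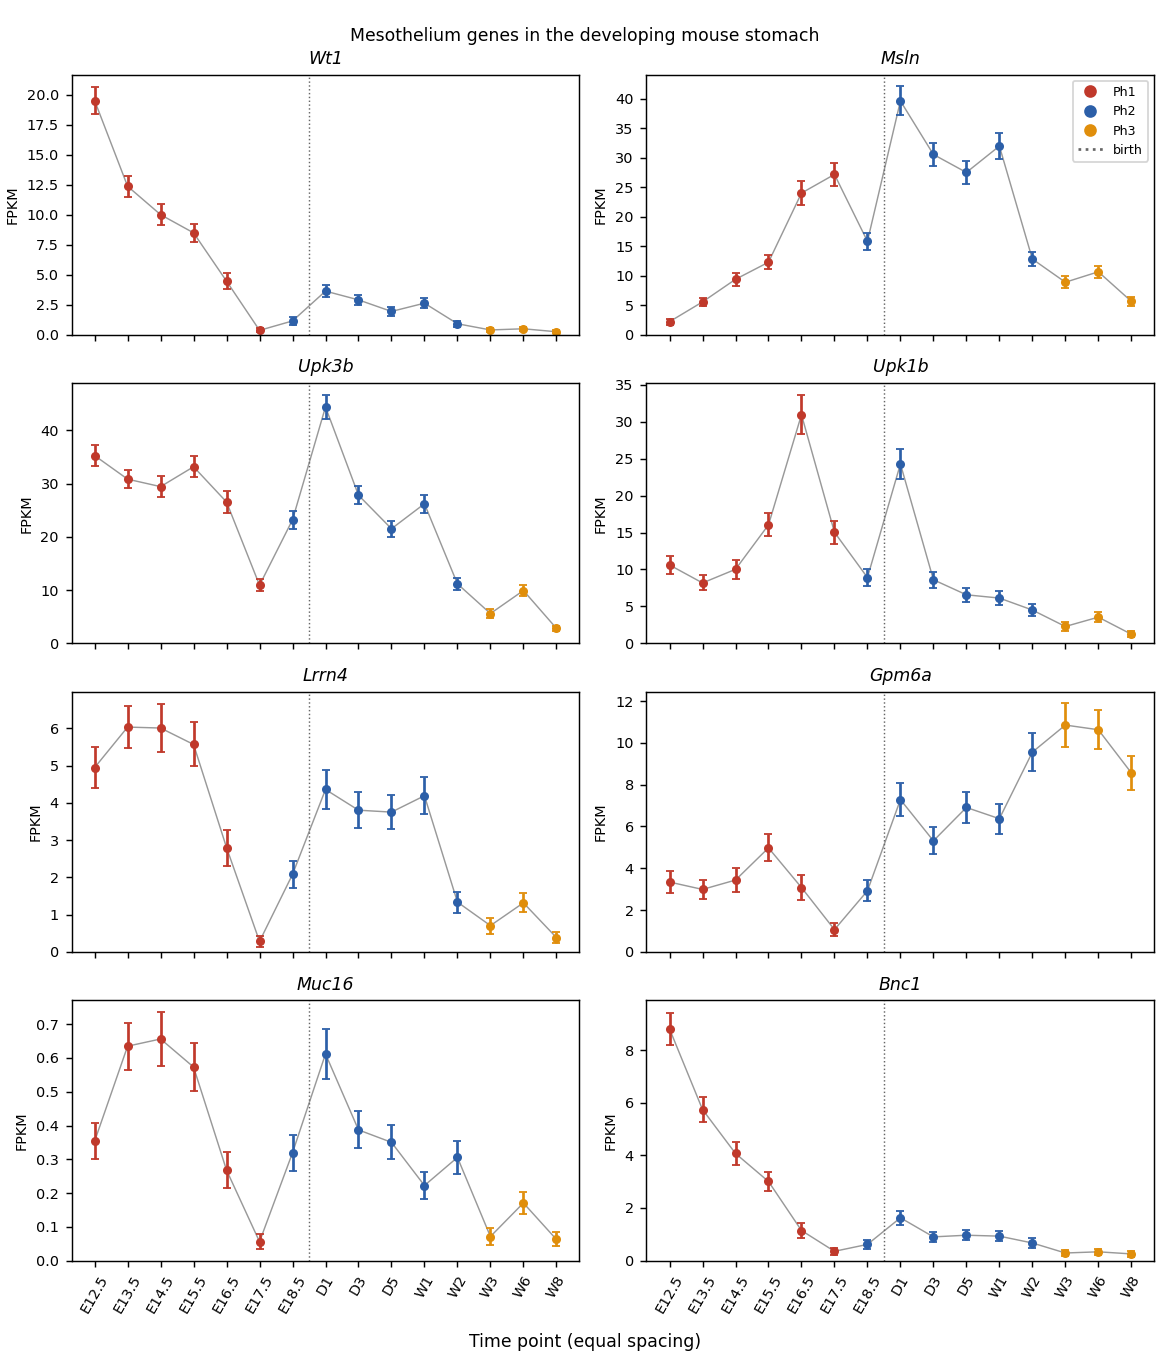
FPKM of the 8 mesothelium genes at 15 time points, 1 library each, with the deposited lower and upper bounds (counting error only) as bars and the phases as colours; the vertical axes differ between panels and start at 0. Wt1 and Bnc1 fall from E12.5 to E17.5, Msln rises over the same time points and is highest at D1, and every member but Msln and Upk1b lies below both neighbours at E17.5.

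The transcription factors Wt1 and Bnc1 fell over the embryonic time points, with their lowest embryonic values at E17.5 and higher ones at E18.5. Wt1 was at 19.5 FPKM at E12.5, 12.4 at E13.5, 10.01 at E14.5, 8.49 at E15.5, 4.46 at E16.5, 0.359 at E17.5 and 1.14 at E18.5. Bnc1 was at 8.80, 5.74, 4.07, 3.00, 1.14, 0.352 and 0.615 FPKM at the same time points. Each step down from E12.5 to E17.5 was larger than the bounds of its neighbours, except that the bounds of Wt1 at E14.5 and E15.5 overlapped. A linear trend over the 7 embryonic time points, fitted in limma to log2(FPKM + 1) of the 16902 genes that reached 1 FPKM in some library, gave -0.62 per day for Wt1 (SE 0.09, adjusted p = 0.00177). For Bnc1 it gave -0.49 per day (SE 0.05, adjusted p = 0.000372). Both calls held in all 19 alternatives computed, including those without E17.5. Of all tested genes, 39.3% had a called embryonic trend at an adjusted p under 0.01, 25% downwards and 14.3% upwards, and 3 of the 7 tested members did, Wt1 and Bnc1 downwards and Msln upwards. The same 3 members were called with median-ratio scaling, with 36.2% of all genes, 18.1% in either direction.

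After birth both transcription factors showed a second, lower maximum. Wt1 stood at 3.63 FPKM at D1, 2.90 at D3, 1.94 at D5, 2.63 at W1, 0.908 at W2, 0.392 at W3, 0.489 at W6 and 0.242 at W8. Bnc1 was at 1.63 FPKM at D1, 0.901 at D3, 0.963 at D5, 0.928 at W1, 0.668 at W2, 0.288 at W3, 0.333 at W6 and 0.253 at W8. For both genes, D1 lay above every later value and above E17.5 and E18.5. At W3, W6 and W8 the bounds of neighbouring values overlapped, and 16 fragments stood behind Wt1 at W8. The basonuclin paralogue Bnc2 fell from 8.06 FPKM at E12.5 to 0.245 at W8, with a called embryonic trend of -0.25 per day (adjusted p = 0.00107 in limma).

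Mesothelin took the opposite course before birth. Msln was at 2.20 FPKM at E12.5, 5.55 at E13.5, 9.38 at E14.5, 12.3 at E15.5, 24.0 at E16.5, 27.2 at E17.5 and 15.8 at E18.5. After birth it was at 39.6 FPKM at D1, 30.5 at D3, 27.5 at D5, 32.0 at W1, 12.8 at W2, 8.88 at W3, 10.7 at W6 and 5.65 at W8. The 4 values from D1 to W1 were the highest of the series for Msln, although the bounds of D5 and E17.5 overlapped, and those of E12.5 and E13.5 were the lowest, with the bounds of E13.5 and W8 overlapping. Its embryonic trend was 0.45 per day (SE 0.09, adjusted p = 0.00613 in limma). The call was lost when any 1 time point from E12.5 to E17.5 other than E16.5 was left out, with trends of 0.34 to 0.46 per day and adjusted p from 0.0123 to 0.0387 in limma. The rise ran beside that of the forestomach squamous genes, whose sum went from 49.3 FPKM at E12.5 to 9394 at E17.5. Across the 15 median-ratio scaled libraries, the level of Msln and that sum had a Pearson r of 0.829, and 0.887 without W8, as a description of time courses that share age. The part of squamous epithelium in the Msln values was not tested. At W8, where that sum was 16.9 FPKM, Msln was at 5.65 FPKM.

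Muc16, the mucin that binds mesothelin, stayed below 1 FPKM throughout and was left out of the fit across genes. Before birth it was at 0.354, 0.635, 0.656, 0.573, 0.268, 0.0558 and 0.319 FPKM from E12.5 to E18.5. After birth it was at 0.612, 0.387, 0.35, 0.222, 0.306, 0.0712, 0.171 and 0.0627 FPKM from D1 to W8. The lowest value, at E17.5, rested on 27.0 fragments. Postnatal values lay 0.14 lower on the log2(FPKM + 1) scale than embryonic ones, which an exact two-sided permutation test over 6435 splits did not separate (p = 0.227). Among other membrane mucins, Muc1 rose by 0.72 per embryonic day (adjusted p = 0.000158 in limma) to a maximum of 249.7 FPKM at W2, and Muc4 stayed between 0.702 and 2.79 FPKM.

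The 2 uroplakins were abundant before birth and low in the weaned stomach. Upk3b was at 35.3 FPKM at E12.5, 30.8 at E13.5, 29.4 at E14.5, 33.2 at E15.5, 26.5 at E16.5, 10.9 at E17.5 and 23.2 at E18.5. It was at 44.4 FPKM at D1, 27.8 at D3, 21.5 at D5, 26.2 at W1, 11.2 at W2, 5.59 at W3, 9.91 at W6 and 2.82 at W8. In FPKM as deposited, all Ph3 values of Upk3b lay below all of its Ph1 and Ph2 values, although the bounds of W6 and E17.5 overlapped. With median-ratio scaling W6 lay above E17.5 and W2, so this separation was lost. Upk1b was at 10.6, 8.17, 10.02, 16.04, 31.0, 15.0 and 8.90 FPKM from E12.5 to E18.5. From D1 to W8, Upk1b was at 24.3, 8.60, 6.57, 6.12, 4.50, 2.27, 3.54 and 1.23 FPKM. It thus had separate maxima at E16.5 and D1, and the E16.5 value was 25.2-fold that at W8. Neither uroplakin had a called embryonic trend, with -0.17 per day for Upk3b (adjusted p = 0.0904 in limma) and 0.09 per day for Upk1b (adjusted p = 0.514 in limma).

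Other uroplakins differed from both. Upk3bl, which encodes a uroplakin 3b-like protein, reached 90.3 FPKM at E16.5 and fell to 0.11 at W8. Upk2 reached 32.1 FPKM at E15.5 and Upk3a 11.2 FPKM at W1, and Upk1a stayed at or below 2.28 FPKM. Upk1b and Upk3bl shared their highest time point, at which the forestomach squamous genes summed to 6498 FPKM, and the part of that epithelium in their values was not tested. The D1 maximum of Upk1b also coincided with the highest sum of those genes, 12252 FPKM. Whether the counting split reads between the closely related Upk3b and Upk3bl was not tested.

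**Figure D2:**
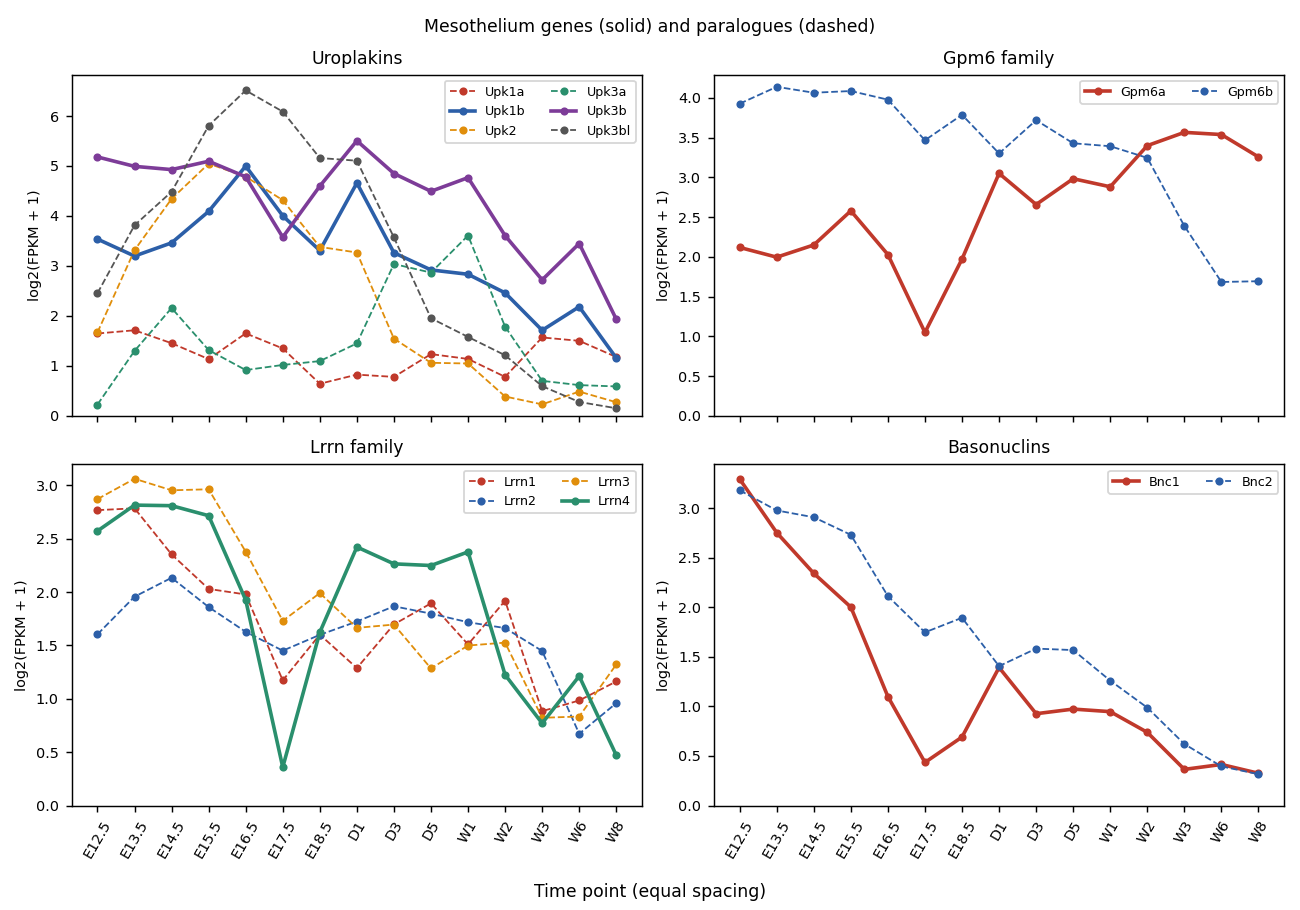
Levels as log2(FPKM + 1) of Upk1b, Upk3b, Gpm6a, Lrrn4 and Bnc1 (solid lines) and paralogues of these genes (dashed lines) at 15 time points, 1 library each. Upk2, Upk3bl and Upk1b peak at E15.5 or E16.5, Upk3b at D1, and Gpm6a, unlike Gpm6b, is highest in Ph3.

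Lrrn4 was at 4.95 FPKM at E12.5, 6.03 at E13.5, 6.01 at E14.5, 5.57 at E15.5, 2.80 at E16.5, 0.283 at E17.5 and 2.08 at E18.5. It was at 4.36 FPKM at D1, 3.8 at D3, 3.75 at D5, 4.19 at W1, 1.34 at W2, 0.706 at W3, 1.32 at W6 and 0.387 at W8. The 4 values from D1 to W1 were alike within their bounds, and the 17 fragments at E17.5 gave the lowest value. Its embryonic trend of -0.31 per day did not pass the threshold (SE 0.11, adjusted p = 0.0479 in limma). The paralogues Lrrn1, Lrrn2 and Lrrn3 reached 5.89, 3.39 and 7.35 FPKM.

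Gpm6a was the exception among the members. It was at 3.34, 2.99, 3.44, 4.98, 3.08, 1.07 and 2.92 FPKM from E12.5 to E18.5. From D1 to W8 it was at 7.29, 5.31, 6.91, 6.37, 9.56, 10.9, 10.6 and 8.57 FPKM. Every postnatal value of Gpm6a lay above every embryonic value, although the bounds of D3 and E15.5 overlapped. The postnatal minus embryonic difference was 1.18 on the log2(FPKM + 1) scale (SE 0.20, adjusted p = 0.000198 in limma), and it was 1.60 (SE 0.25, adjusted p = 0.000161) with median-ratio scaling. Gpm6a was the 1 member of 7 called in this comparison, in which 52.3% of all genes were called, 11.3% higher and 41% lower. It was again the 1 member called with median-ratio scaling, with 42.2% of all genes, 21.8% higher and 20.4% lower. Its paralogue Gpm6b went the other way, from 16.6 FPKM at E13.5 to 2.21 FPKM at W6. Genes of enteric neurons and glia summed to 237.0 FPKM at E14.5 and 28.6 FPKM at W6. With that sum, Gpm6a had a Pearson r of -0.708 over the 15 median-ratio scaled libraries. The genes of this list did not all fall. In the postnatal against embryonic comparison 0 of 8 were called higher and 5 lower, and with median-ratio scaling 2 higher and 4 lower. Snap25 was at 2.34 FPKM at E12.5, 11.7 at D3 and 4.97 at W8. The cell type behind the postnatal Gpm6a was not tested.

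Between the phases, the shares of members called lay near or below those of all genes. In limma's F test across Ph1, Ph2 and Ph3, 5 of the 7 tested members were called (Wt1, Upk3b, Upk1b, Gpm6a and Bnc1), against 70.8% of all genes, and with median-ratio scaling 1 was (Gpm6a), against 60.7%. Between Ph1 and Ph2, Gpm6a was higher by 0.84 (SE 0.24, adjusted p = 0.00827 in limma) and no other member was called, against 48.3% of all genes (13.2% higher, 35.1% lower). With median-ratio scaling Gpm6a was again the 1 member called, higher by 1.05 (SE 0.25, adjusted p = 0.00277), against 38.8% of all genes (20.4% higher, 18.4% lower). The unscaled call of Gpm6a was lost in 13 of the 15 fits that left out 1 time point, in which the difference was 0.65 to 1.01 and the adjusted p 0.00138 to 0.0212, and it was also lost with a pseudocount of 0.1 (adjusted p = 0.0131) and without a filter (adjusted p = 0.018). Without E17.5, Wt1 was lower in Ph2, with a difference of -1.85 (adjusted p = 0.000147), and so was Bnc1, with -1.35 (adjusted p = 0.00107), and Gpm6a, at 0.65, had an adjusted p of 0.0123. Between Ph2 and Ph3, Upk3b was lower, with a difference of -1.94 (SE 0.41, adjusted p = 0.00141), and so was Upk1b, with -1.56 (SE 0.44, adjusted p = 0.0077), that is 2 of 7, against 40.9% of all genes (37.4% lower, 3.41% higher). Neither call held with median-ratio scaling (Upk3b -1.41, adjusted p = 0.0147, and Upk1b -1.12, adjusted p = 0.0604) or without W8 (adjusted p = 0.0117 and 0.0459), and that of Upk1b was lost in 7 of the 15 fits that left out 1 time point. With that scaling Gpm6a was higher in Ph3, by 1.18 (SE 0.30, adjusted p = 0.00661), and was the 1 member of 7 called, against 25.2% of all genes (14.9% higher, 10.4% lower).

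Within the postnatal period, 6 of the 7 tested members fell with age. The slope per doubling of age over the 8 postnatal time points was -0.36 for Wt1 (SE 0.05, adjusted p = 0.00291 in limma), -0.46 for Msln (SE 0.07, adjusted p = 0.00371) and -0.56 for Upk3b (SE 0.09, adjusted p = 0.00396). It was -0.51 for Upk1b (SE 0.06, adjusted p = 0.00254), -0.35 for Lrrn4 (SE 0.07, adjusted p = 0.00694) and -0.18 for Bnc1 (SE 0.03, adjusted p = 0.00387). Gpm6a had a slope of 0.12 (SE 0.05, adjusted p = 0.066). Of all tested genes 19.6% had a called postnatal slope, 16.8% downwards and 2.79% upwards. The number of calls rested on single libraries for these genes and for all genes. Without W8, 0 members and 72 of 16841 genes were called, with slopes of the 6 members from -0.48 to -0.19 and adjusted p from 0.0164 to 0.0347. Without W6, 1 member and 75 genes were called, and without D3, 1 member and 387 genes. With median-ratio scaling, 3 members were called, Wt1 (-0.31, adjusted p = 0.00442), Upk1b (-0.41, adjusted p = 0.00892) and Bnc1 (-0.14, adjusted p = 0.00786), all downwards, against 14.6% of all genes (6.7% lower, 7.87% higher).

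**Figure D3:**
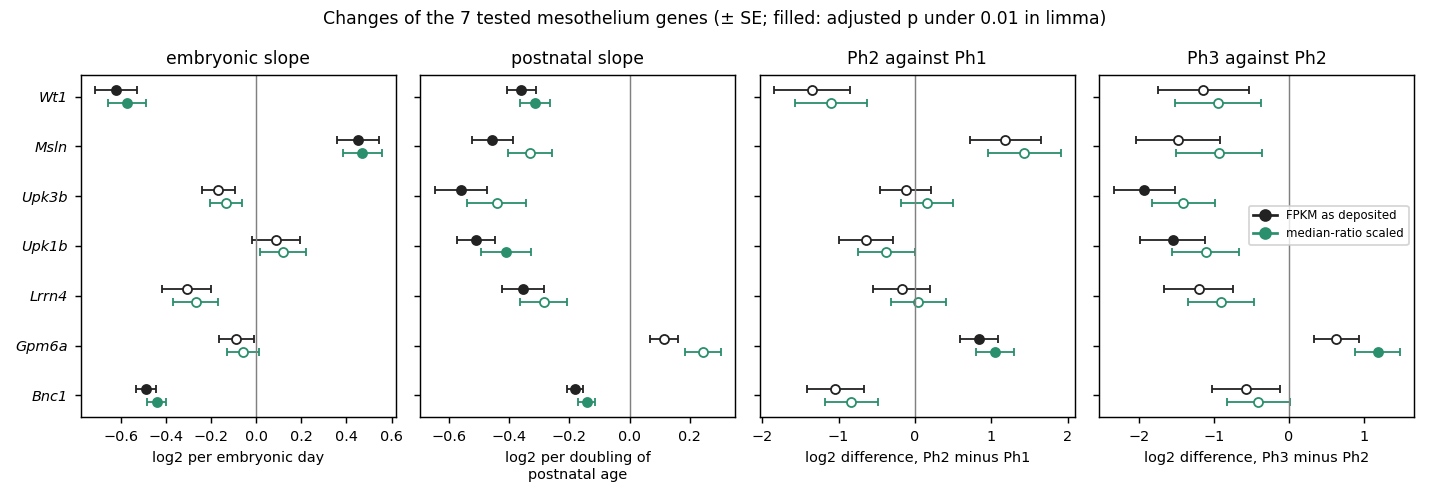
Trends per embryonic day, slopes per doubling of postnatal age and differences between phases (log2(FPKM + 1), bars ± SE from limma) of the 7 tested members, with FPKM as deposited (black) and median-ratio scaled (green); filled points have an adjusted p under 0.01. On both scales the embryonic trend is negative for Wt1 and Bnc1 and positive for Msln, and Gpm6a is the only member to the right of 0 between Ph2 and Ph3.

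The E17.5 library held low values of most members. This comparison, and that for D1, was chosen after the values were seen and has no test, since each time point is 1 library. Against the mean of E16.5 and E18.5 on the log2(FPKM + 1) scale, the difference at E17.5 was -1.42 for Lrrn4, -1.33 for Wt1, -1.12 for Upk3b, -0.95 for Gpm6a, -0.46 for Bnc1 and -0.15 for Upk1b. Msln alone was higher, by 0.46. Of the 7 tested members 3 lay at least 1 below their neighbours, against 0.379% of all genes (64 of 16902), and the median was -0.95 against -0.01. The neighbour E16.5 is the library that held lens crystallins, and these were among the genes of lowest difference. Cryba1 was at 25.2 FPKM at E16.5, 0 at E17.5 and 0.127 at E18.5. The part of E16.5 in this comparison was not tested. Median-ratio scaling left the member median at -0.90. E17.5 was not alone in holding low values. At E18.5, 2 of the 7 lay at least 1 below the mean of E17.5 and D1, against 1.01% of all genes. There 5 of the 7 lay below that mean, with a median of -0.22. Muc16, outside the filter, was at 0.268, 0.0558 and 0.319 FPKM at E16.5, E17.5 and E18.5. The 12 tested genes of the list of other mesothelial genes had a median of -0.13. Among them Rspo1, which encodes a Wnt agonist, differed by -1.26 and Cldn15, a claudin, by -0.78, Nkain4 (0.03) and Aldh1a2 (-0.10) were near their neighbours, and Slpi, a protease inhibitor, was above them by 2.05. The 8 genes of enteric neurons and glia all lay below their neighbours, with a median of -0.42, and those of forestomach squamous epithelium above them, with a median of 0.46. The tissue composition of the E17.5 library was not tested.

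At D1 the members moved together in the other direction. All 7 lay above the mean of E18.5 and D3, from 0.48 (Lrrn4) to 1.37 (Upk1b), with a median of 0.74 against -0.04 for all genes. D1 was not alone in this. At W6 all 7 lay above the mean of W3 and W8, with a median of 0.52 against -0.19 for all genes. With median-ratio scaling the member median was 0.83 at W6 and 0.78 at D1. At W1, 6 of the 7 lay above their neighbours, with a median of 0.62. Of the 7, 1 member, Upk1b, was at least 1 above its neighbours at D1, against 2.18% of all genes. D1 gave the highest postnatal value of every member but Gpm6a. The 12 tested genes of the list of other mesothelial genes had a median of 0.32 at D1. They ranged from -0.22 (Thbd) to 2.13 (C3). Slpi was at 1.59, Rspo1 at 0.87, Cldn15 at 0.86, Aldh1a2 at 0.18, Prg4 at 0.08 and Tcf21 at -0.004. The forestomach squamous genes lay above their neighbours, with a median of 1.19, whereas the fibroblast genes lay below theirs, with a median of -0.30. The gastric epithelial genes had a median of -0.35 and ranged from -0.86 (Gkn1) to 0.20 (Muc5ac). A negative difference was not always a drop at D1, since Gkn1 was at 251.0 FPKM at E18.5, 524.7 at D1 and 3611 at D3.

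**Figure D4:**
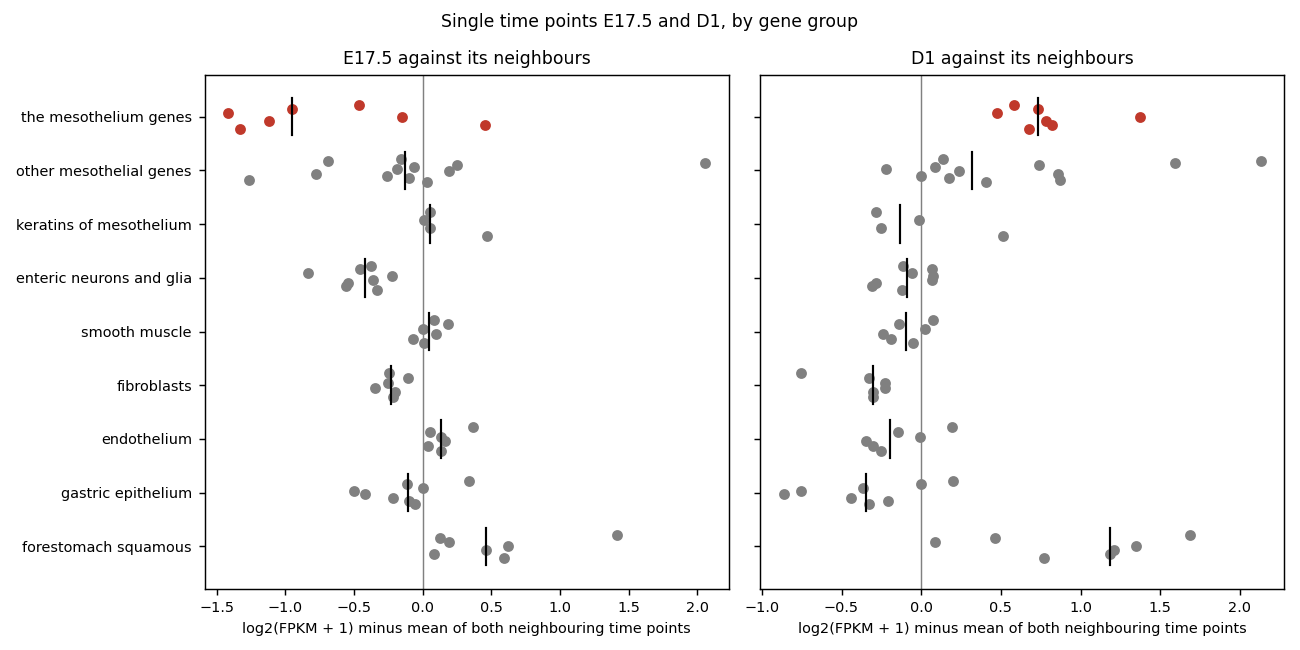
Difference of E17.5 (left) and D1 (right) from the mean of both neighbouring time points, in log2(FPKM + 1), for each tested gene of 9 groups, with the group median as a black line; each time point is 1 library and no test was run. The mesothelium genes (red) have a median of -0.95 at E17.5 and 0.74 at D1.

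The members differed in how far their courses ran in parallel. Over the 15 median-ratio scaled libraries, as a description of time courses that share age and library, Wt1 and Bnc1 had a Pearson r of 0.957, Upk3b and Lrrn4 of 0.879, Lrrn4 and Muc16 of 0.842, and Wt1 and Lrrn4 of 0.817. Msln had r of -0.517 with Wt1 and -0.681 with Bnc1. Gpm6a had r between -0.563 (Upk1b) and 0.214 (Msln) with the other members. Without E17.5, Upk3b and Lrrn4 had r of 0.903 and Gpm6a and Wt1 of -0.767, against -0.460 with it. Msln and its binding partner Muc16 had r of -0.035, and the uroplakins Upk1b and Upk3b of 0.682.

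Among the 12433 genes that reached 5 FPKM in some library, Rspo1 had the profile most like the mean of the members (r = 0.875 over 15 libraries), followed by Aptx (0.865), Bid (0.785), Ldlrad4 (0.781), Arid3a (0.780), Fam69a (0.775), Ppm1d (0.775), Tgfb3 (0.774), Nkain4 (0.774) and Snx4 (0.774). Of these 10 genes 4 were also among the 10 nearest with unscaled FPKM. For single members the nearest genes were Spock3 for Wt1 (0.960), Aqp1, a water channel, for Msln (0.938), Nkain4 for Upk3b (0.882), Gm11974 for Upk1b (0.884), Rspo1 for Lrrn4 (0.945), Tmem151a for Gpm6a (0.977), Mtmr3 for Muc16 (0.814) and Stra6, the membrane receptor for retinol, for Bnc1 (0.969). Rspo1 was at 25.3 FPKM at E12.5 and 2.66 FPKM at W8.

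Other genes known from mesothelium did not follow a single direction either. Of 14 such genes 12 were tested. In the embryonic trend 2 rose and 2 fell, against 14.3% and 25% of all genes. In Ph2 against Ph1 4 rose and 2 fell, against 13.2% and 35.1%. In Ph3 against Ph2 1 rose and 4 fell, against 3.41% and 37.4%. With postnatal age 1 rose and 8 fell, against 2.79% and 16.8%. With median-ratio scaling 1 rose and 4 fell with postnatal age, against 7.87% and 6.7%. The median postnatal slope of the list was -0.33, against -0.36 for the 7 members and -0.10 for all genes. Slpi, an inhibitor of serine proteases that many epithelia secrete, was the most abundant of the list and changed most, from 1.45 FPKM at E13.5 to 1253 FPKM at D1 (Ph2 against Ph1 5.47, adjusted p = 0.000593 in limma). Tbx18, a transcription factor of embryonic mesothelium, was the least abundant, at most 0.514 FPKM. Among genes chosen here after their values were seen, Aldh1a2, which makes retinoic acid, fell by 0.16 per embryonic day (adjusted p = 0.00158 in limma) and Tcf21, a transcription factor of visceral mesenchyme, fell by 0.28 per day (adjusted p = 0.00096). Nkain4, an interacting protein of the sodium pump, had a postnatal slope of -0.51 (adjusted p = 0.00204).

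The keratins of mesothelium, Krt7, Krt8, Krt18 and Krt19, which gastric epithelium also expresses, rose in the embryonic trend in 3 of 4 cases. Of all genes 14.3% rose in that trend. With postnatal age 0 of the 4 were called, against 19.6% of all genes, and with median-ratio scaling 1 rose, against 7.87%. Krt19 was the most abundant, with up to 2811 FPKM at W6, and Krt7, the least abundant, had its maximum of 281.5 FPKM at E16.5. Of 11 partners and targets of WT1, 9 were tested. In the embryonic trend 0 rose and 4 fell, against 14.3% and 25% of all genes. With median-ratio scaling 1 rose and 3 fell, against 18.1% of all genes in either direction. In Ph2 against Ph1, 0 rose and 2 fell (13.2% and 35.1% of all genes). With scaling 3 rose and 2 fell (20.4% and 18.4%). Pawr, Erbb3 and Cited2 were at 11.2, 9.79 and 26.6 FPKM at E12.5 and at 21.9, 15.6 and 31.7 FPKM at E18.5. Wtap, whose product binds WT1, had the highest mean of this list over the 15 time points, with up to 46.8 FPKM at E12.5, and fell by 0.12 per embryonic day (adjusted p = 0.00116 in limma). Podxl, chosen after its values were seen, encodes a sialomucin whose gene WT1 is known to activate, and it fell by 0.47 per embryonic day (adjusted p = 0.000708 in limma), from 44.2 FPKM at E12.5. Snai2, a repressor active in cells that leave an epithelium, had the largest change, -2.15 in Ph2 against Ph1 (adjusted p = 6.93e-05), and Nphs1 was at most 0.211 FPKM.

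Markers of other cells in the stomach wall were counted in the same way. Of all genes, 14.3% rose and 25% fell in the embryonic trend, and 2.79% rose and 16.8% fell with postnatal age. Without W8, 72 of 16841 genes had a called postnatal slope. The counts of the lists without W8 are not given here. In the embryonic trend, 6 of 6 smooth muscle genes rose, 3 of 6 fibroblast genes rose and 1 fell, 2 of 6 endothelial genes fell, 1 of 8 enteric neuron and glia genes rose and 3 fell, 5 of 8 gastric epithelial genes rose and 6 of 7 forestomach squamous genes rose. With postnatal age, 0 of 6 smooth muscle genes, 1 of 6 fibroblast genes (lower), 0 of 6 endothelial genes, 6 of 8 enteric neuron and glia genes (lower), 5 of 8 gastric epithelial genes (higher) and 3 of 7 forestomach squamous genes (lower) were called. Tissue attached to the outside of the stomach was checked by adipocyte genes, which summed to 0.0729 FPKM at E12.5 and 30.7 at W3, by pancreatic acinar genes, which summed to 4.04 FPKM at E12.5, 122.6 at D3 (84.5 of it from Ctrb1) and 87.7 at W8 (85.5 of it from Cela1, with Ctrb1 at 0.744 and Cpa1 listed at 0), and by B cell genes of the spleen, which summed to at most 2.92 FPKM. At the dip of E17.5 the acinar sum was 14.4 FPKM, against 12.1 at E16.5 and 12.2 at E18.5. The part of attached tissue in the values of the members was not tested.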

How the data were processed

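RNA-Seq was carried out on whole stomachs of C57BL/6 mice at 15 time points, with 1 transcriptome each. The authors deposited 1 table per time point with FPKM per gene entry and lower and upper bounds in FPKM. The methods of the study name FastQC, HISAT2, StringTie and a GENCODE annotation, whereas the submitters' processing notes name Bowtie 0.12.2, FastQC and GRCm38.p2, and the tables have the layout of Cufflinks, so the tool that made the deposited values is not certain. Whether counting used strand is not given in the sources used here.

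Entries of a symbol were summed. Genes that reached 1 FPKM in some library were fitted as log2(FPKM + 1) with limma 3.58.1 in R 4.3.3, with Benjamini-Hochberg adjustment over 16902 genes and calls at an adjusted p under 0.01. A log2 difference on this scale understates the change of low genes. The fits were an F test over the phases with contrasts between consecutive phases, the postnatal against embryonic time points, a trend per embryonic day, and a slope per doubling of postnatal age with a week taken as 7 days. These comparisons share libraries. Muc16 was below the limit and was compared with an exact permutation test (SciPy 1.17.1). Time points served as replicates, so the spread includes change with age, and the labels name no batch. The fitting was tested on simulated data. Depth was read from the bounds, taken as Poisson errors, and a single fragment was worth a median of 0.0421 (W6) to 0.0680 (E16.5) FPKM.

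All 8 members are named. Genes of 13 marker, paralogue and partner lists are given as counts and named where they are the highest or lowest of their list, change most or are paralogues (1 gene of these lists is not reported here), and the genes most like the members are the 10 of highest Pearson r. The members, lists and comparisons were chosen with earlier results of these data known. Alternatives were other pseudocounts, limits, scalings, entry rules, variance models, phase borders and age scales, and each time point was left out in turn.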

Additional observations from a re-analysis of the deposited data

Results flagged for a closer look

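Among the 6 time points of Ph1, 2 members had a single value far from the rest, both at E17.5. Upk3b was at 10.9 FPKM at E17.5 while the other values of Ph1 lay between 26.5 and 35.3 FPKM. On the log2(FPKM + 1) scale, the gap to the nearest took 0.753 of the whole range, above the limit of 0.625. Lrrn4 was at 0.283 FPKM at E17.5 against 2.80 to 6.03 FPKM, with a gap of 0.638 of the range on the same log2 scale. Both ends of Ph1 and Ph2 were examined for all 8 members, which makes 16 groups. The limit is made to flag about 1 group in 20 by chance when values are independent and vary around 1 level. These values change with age and the members share libraries, so that rate does not apply here. Gpm6a at E17.5, with 0.619, was just short of the limit.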

How the results depend on the processing

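Over the single-gene values of the 7 tested members, 757 of 861 alternatives kept direction and side of the threshold, 79 lost the call, 20 gained it and 5 changed sign. The counts of members called moved as follows. In the F test over the phases (5 of 7) it was 3 without a filter, 1 with median-ratio scaling, 1 with quantile normalization and 3 to 6 when each time point was left out. In Ph2 against Ph1 (1) it was 0 with a pseudocount of 0.1, 0 without a filter, 3 with E17.5 placed in Ph2 and 0 to 2 when each time point was left out. In Ph3 against Ph2 (2) it was 1 without a filter, 1 with median-ratio scaling, 0 with quantile normalization and 0 to 3 when each time point was left out. In the postnatal against embryonic comparison (1) it was 1 to 3 when each time point was left out, with 3 without E17.5 or E18.5. For the embryonic trend (3) it was 2 to 3. For the postnatal slope (6) it was 3 without a filter, 3 with median-ratio scaling, 3 with quantile normalization and 0 to 6 when each time point was left out. The calls over all 16902 tested genes, or 28775 without a filter, also moved. In the F test over the phases 11966 became 12292 without a filter, 10258 with median-ratio scaling and 10355 with quantile normalization. In Ph2 against Ph1, 8164 became 7765 with a pseudocount of 0.1, 7930 without a filter and 8514 with E17.5 placed in Ph2. In Ph3 against Ph2, 6905 became 6445 without a filter, 4266 with median-ratio scaling and 3021 with quantile normalization. For the postnatal slope 3305 became 738 without a filter, 2463 with median-ratio scaling and 2639 with quantile normalization. When each time point was left out, 10640 to 12311 of 16785 to 16881 genes were called in the F test. In Ph2 against Ph1 it was 6730 to 9006 and in Ph3 against Ph2 3123 to 7490. In the postnatal against embryonic comparison (8834) it was 7481 to 9199. For the embryonic trend (6639) it was 4230 to 5906 and for the postnatal slope 72 to 4644. Some settings were chosen after seeing the data. Median-ratio scaling without E17.5 called 4 members in Ph2 against Ph1, 2 in the postnatal against embryonic comparison and 3 in the postnatal slope, and leaving out both E17.5 and W8 called 2 in Ph2 against Ph1, 1 in Ph3 against Ph2, 2 in the postnatal against embryonic comparison and 0 in the postnatal slope. Against the main fit, the sign changed for 3 values of Upk3b in Ph2 against Ph1. These were 0.16 with median-ratio scaling, 0.045 with quantile normalization and 0.083 without W2. The setting without E17.5 and W8, chosen after seeing the data, gave -0.36. The sign also changed for Lrrn4 in the same comparison (0.045 with median-ratio scaling). For Gpm6a it changed in the embryonic trend (0.013 with median-ratio scaling without E17.5). None of the values that changed sign was called before or after. For Muc16 the postnatal against embryonic difference was -0.21 to -0.10 when each time point was left out, -0.45 and -0.23 with pseudocounts of 0.1 and 0.5, and -0.04 with median-ratio scaling, with p from 0.0679 to 0.693 in the exact permutation test. The causes of these shifts were not tested. Depth limits the lowest values, since Wt1, Lrrn4 and Bnc1 at E17.5 rested on 18.9, 17 and 29 fragments. No paired analysis was possible because the labels give no replicate numbers shared between the groups.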
